A study of Mus musculus with 27 samples.

Results

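*Cd209c*, *Tdrd9*, *Dhx40* and *Gm19757* were followed in all 27 libraries of *Setdb1* cKO iMEFs, a line of immortalized embryonic fibroblasts of the mouse that loses *Setdb1* on 4-hydroxytamoxifen (4OHT). These 4 genes were picked because an endogenous retrovirus (ERV) lies in or near the locus, or because the RNA rose very much when silencing was lost. They stand among 19513 genes with a value in every library of the total RNA experiment, 21379 in the siRNA experiment and 21532 in the inhibitor experiment. They were chosen by the FPKM (fragments per kilobase of transcript, scaled to library size) after *Setdb1* deletion, after *Dnmt1* knockdown and with TSA, so comparisons of these groups with their controls are given as descriptions, without a test. The name of the set says more than these data hold, since FPKM of a gene do not show where a transcript starts.

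All cells carry the conditional *Setdb1* allele and come, per the study's methods, from recloned single cells. The total RNA experiment holds 3 libraries each of untreated cells, of cells at day 5 after 4OHT was given for 4 days (4OHT day 5) and of cells cultured for more than 2 weeks after 4OHT (long-term KO), all made after removal of ribosomal RNA. In the siRNA experiment, 2 libraries each come from cells with control siRNA (siCtrl), *Dnmt1* siRNA (siDnmt1), 4OHT + siCtrl and 4OHT + siDnmt1, harvested at day 6. The inhibitor experiment holds 2 libraries each of untreated cells, cells with 150 nM trichostatin A (TSA, a histone deacetylase inhibitor) for 24 h, with 1 µM of the MEK inhibitor PD0325901 for 24 h, at day 6 after 4OHT (4OHT day 6), and 4OHT + PD0325901. The labels do not say whether libraries of a group come from separate cultures, so the p-values measure the spread between these libraries, which may be technical.

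*Setdb1* writes H3K9me3, a histone mark of silent chromatin, and is brought to ERVs by Trim28 and DNA-binding zinc finger proteins. Dnmt1 copies DNA methylation to the new strand after replication and is a second layer of ERV silencing. The long terminal repeats (LTRs) of an ERV carry a promoter and a polyadenylation signal, and a silenced copy inside or upstream of a gene can yield RNA that runs into the gene once it is released. VL30 elements are retrovirus-like copies that mouse cells can package into particles, and MMERVK10C and IAPEz are families with internal viral genes.

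The 4 loci hold different elements in different places (mm9). *Cd209c*, a C-type lectin receptor related to DC-SIGN, lies on the minus strand at chr8:3940222-3946863. Its start in the deposited data, 3946863, is taken as the annotated start. This start lies inside an MMERVK10C element on the same strand, chr8:3945963-3952931, which shares 901 bp with the gene. In GENCODE, 2 of the 3 transcripts of *Cd209c* have an exon in this element. The GENCODE gene model reaches up to 3954746, so its outermost start on this strand lies upstream of the element. *Tdrd9*, a Tudor domain helicase of the piRNA pathway in germ cells, lies on the plus strand at chr12:113209770-113307065. It holds the VL30 U3 class I element #44 at chr12:113255151-113259546 on the opposite strand, entirely within intron 13 (113254174 to 113261452, 7279 bp) of both GENCODE transcripts. A second stretch of 5989 bp in the gene, chr12:113292893-113298881, matched 32 listed MMERVK10C elements, the longest match with 94.8% identity.

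*Dhx40*, a member of the DEAH-box RNA helicases, lies on the minus strand at chr11:86582351-86621162. The VL30 U3 class I element #38 at chr11:86625241-86629897 is on the same strand and ends 4079 bp upstream of the annotated start. *Gm19757*, an uncharacterized gene at chr6:105431260-105442662 on the minus strand, is not in the GENCODE version used here. No listed element lies within 1254867 bp of it. Stretches of its sequence nevertheless matched IAPEz elements, from 105438703 to 105440180 and from 105440236 to 105442925. The second stretch reaches across the annotated start and matched 592 of the 593 listed IAPEz elements, the longest match with 89.8% identity.

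**Figure D1:**
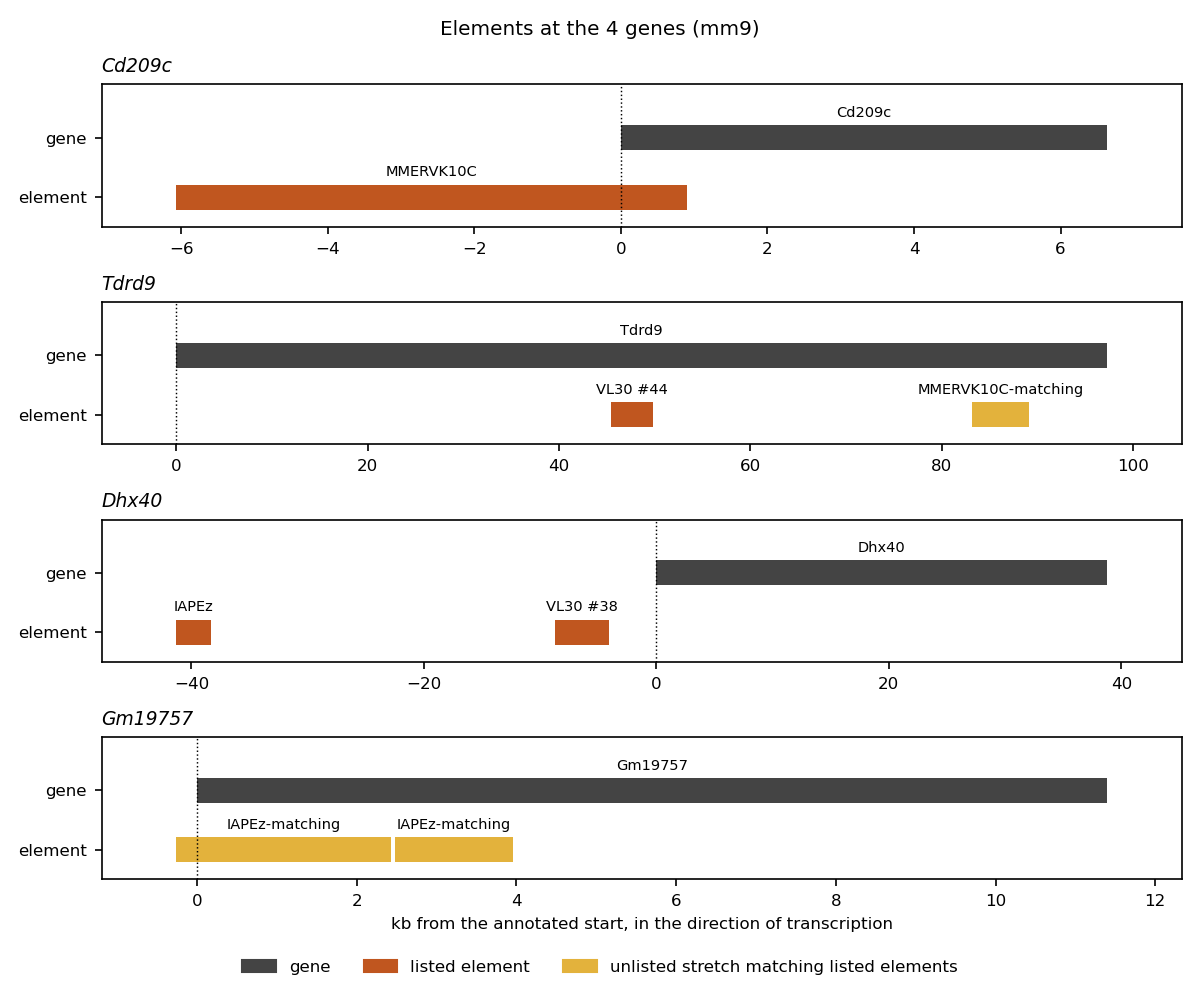
Gene bodies and elements at the 4 loci, on an axis in kb from the annotated start along the direction of transcription (dotted line at the start), with listed elements and unlisted matching stretches in separate colours. The starts of *Cd209c* and *Gm19757* in the deposited data lie within element sequence, #44 lies inside *Tdrd9*, and #38 lies upstream of *Dhx40*. The GENCODE model of *Cd209c* extends upstream beyond its element.

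The start regions of *Cd209c* and *Gm19757* are shown because element sequence covers them. Each runs from 250 bases before to 49 after the first base of the gene (mm9, minus strand, identical to the RefSeq promoter of GRCm38.p6), and the capitals mark the bases from the annotated start on. The *Cd209c* region is chr8:3946814-3947113 and that of *Gm19757* chr6:105442613-105442912.
Cd209c: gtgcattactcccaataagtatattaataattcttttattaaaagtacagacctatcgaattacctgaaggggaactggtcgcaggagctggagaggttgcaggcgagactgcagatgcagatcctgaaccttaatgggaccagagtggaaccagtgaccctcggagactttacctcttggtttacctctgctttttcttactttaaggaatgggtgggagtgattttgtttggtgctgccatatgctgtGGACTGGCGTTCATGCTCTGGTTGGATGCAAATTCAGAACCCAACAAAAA
Gm19757: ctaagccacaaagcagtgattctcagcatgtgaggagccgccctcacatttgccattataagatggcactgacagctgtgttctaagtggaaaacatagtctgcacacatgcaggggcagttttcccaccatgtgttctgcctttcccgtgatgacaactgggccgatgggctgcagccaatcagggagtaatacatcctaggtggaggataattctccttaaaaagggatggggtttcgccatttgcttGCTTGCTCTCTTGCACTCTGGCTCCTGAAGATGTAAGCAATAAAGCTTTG

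The *Cd209c* region matched 165 of 167 listed MMERVK10C elements with at least 80% identity, its own element included, and no IAPEz element at this identity. The *Gm19757* region matched 443 of 593 IAPEz elements with at least 80% identity. Matches of any length were counted for both regions, so they may cover only part of a region. The longest match of *Gm19757* to IAPEz (311 bp, gaps included) had 74.9% identity, and that of *Cd209c* to MMERVK10C (306 bp) 93.1%. At 80% or more, the *Gm19757* region also matched 2 VL30 U3 class II elements and 1 MMERVK10C element. For *Tdrd9* and *Dhx40* the same search of the start regions found no match to any listed element.

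The first 300 bases of #38 and #44 hold the U3 part of the LTR, where a retroviral promoter lies, and are shown because they are the VL30 sequences next to *Dhx40* and inside *Tdrd9*. They lie at chr11:86629598-86629897 and chr12:113259247-113259546 (mm9, minus strand), and the capitals mark TGACTC, the core of an AP-1 site.
Element 38: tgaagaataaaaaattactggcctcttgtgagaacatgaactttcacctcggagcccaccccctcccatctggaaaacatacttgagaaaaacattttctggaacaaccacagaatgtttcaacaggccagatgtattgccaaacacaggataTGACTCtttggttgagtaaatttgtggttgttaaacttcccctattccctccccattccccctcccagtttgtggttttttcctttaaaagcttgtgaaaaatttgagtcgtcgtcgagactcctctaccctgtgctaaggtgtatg
Element 44: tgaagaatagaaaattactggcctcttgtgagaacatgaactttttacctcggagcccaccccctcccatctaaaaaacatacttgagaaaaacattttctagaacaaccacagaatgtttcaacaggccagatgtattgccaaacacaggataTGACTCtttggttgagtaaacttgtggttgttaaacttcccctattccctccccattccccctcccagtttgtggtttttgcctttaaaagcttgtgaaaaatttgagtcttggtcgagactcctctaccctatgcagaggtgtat

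An alignment of the 2 stretches gave 95.3% identity, with 12 substitutions and 2 gap bases. Counted from 1 at the first base of #38, with the base of #38 first, the substitutions include C45T, G72A, G73A, G101A, T174C and T234G. TGACTC was searched on both strands and occurs once in each stretch. It also occurs in the start region of *Tdrd9*, and not in those of *Cd209c*, *Dhx40* and *Gm19757*. Of 70 class I elements with at least 250 listed bases, 67 (95.7%) hold it in these bases, and so do 15.3% of 32851 promoter regions of 300 bases. TGANTCA, a full AP-1 site, was found in neither stretch and in 0 of the 70 elements, against 7.81% of the promoters. GGAA, the core that Ets factors bind, was found, counting both strands, 6 times in #38 and 3 times in #44, and at least once in all 70 elements and in 96.0% of the promoters. G72A, G73A and G101A lie in the copies of GGAA from 72 to 75 and from 101 to 104 of #38. T234G lies in the copy from 233 to 236, on the opposite strand. Element #44 holds none of these copies. The longer CCGGAA was found in neither stretch, in 4.29% of the class I elements and in 14.9% of the promoters. These are matches of letters and do not show binding. The elements differ in the primer binding site, where reverse transcription starts, which #44 is listed to share with proline tRNA (PBS-pro) and #38 is not. The 18 bases are chr11:86629379-86629396 in #38 and chr12:113259083-113259100 in #44, and the capitals mark the whole site.
Element 38 primer binding site: TGGTGCGTTGGCCGGGAA
Element 44 primer binding site: TGGGGGCTCGTCCGGGAT

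The FPKM of *Cd209c* was 0.718, 0.680 and 0.774 in untreated cells, 14.3, 13.8 and 15.3 at 4OHT day 5, and 8.04, 7.87 and 8.16 in long-term KO. All 6 libraries made after *Setdb1* deletion were above every untreated library, and the long-term KO libraries lay between the others. Among all genes tested, every 4OHT day 5 library was above every untreated library for 25.4%, every long-term KO library above every untreated one for 41.1%, and every long-term KO library below every 4OHT day 5 one for 33.6%, so that groups apart are common here. Relative to the untreated mean, *Cd209c* was 19.9-fold higher at 4OHT day 5 and 11.1-fold higher in long-term KO. In the ranking of 8818 genes by the log2 difference at 4OHT day 5, *Cd209c* was number 36, *Tdrd9* number 23 and *Dhx40* number 156. As these groups served to pick the genes, high ranks follow in part from the choice.

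With siRNA, *Cd209c* had 0.999 and 0.547 FPKM in siCtrl, 3.17 and 3.90 in siDnmt1, 15.8 and 15.2 in 4OHT + siCtrl, and 52.8 and 49.2 in 4OHT + siDnmt1. These 4 groups did not overlap, and the order of their means was the order just given. Of all genes tested, every library was higher for 27% in siDnmt1 than in siCtrl, for 34.3% in 4OHT + siCtrl than in siCtrl, for 20.4% in 4OHT + siDnmt1 than in 4OHT + siCtrl, for 47.6% in 4OHT + siDnmt1 than in siDnmt1, and for 42.2% in 4OHT + siDnmt1 than in siCtrl. The mean level was 20.1-fold that of siCtrl with loss of *Setdb1* alone, 4.58-fold with knockdown of *Dnmt1* alone, and 66.0-fold with both. The *Dnmt1* RNA itself was between 73.4 and 80.5 FPKM with control siRNA and between 10.6 and 12.2 FPKM with its own siRNA. In the inhibitor experiment, *Cd209c* had 0.579 and 0.580 FPKM in untreated cells, 1.51 and 2.00 with TSA, 0.648 and 0.606 with PD0325901, 21.7 and 29.9 at 4OHT day 6, and 28.2 and 33.6 with 4OHT + PD0325901. Both groups with 4OHT were above all others, and they overlapped with each other. Both 4OHT day 6 libraries were above both untreated ones for 34.4% of all genes tested, and both TSA libraries for 47%.

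The MMERVK10C element at *Cd209c* itself had few rows without a gene name inside it. Averaged over its length, they came to 0.0918, 0.0721 and 0.144 FPKM at 4OHT day 5, 0.440 and 1.78 in 4OHT + siDnmt1, and 0.0438, 0.444 and 0.544 in 1 library each of long-term KO, 4OHT day 6 and 4OHT + PD0325901. No such row was found in the other libraries, 4OHT + siCtrl included, where *Cd209c* was at 15.8 and 15.2 FPKM.

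None of the relatives of *Cd209c* was found at such a level. The other Cd209 genes and the related lectin genes *Fcer2a* and *Clec4g*, 8 in all, passed the filter in no experiment (0 of 8), and the highest FPKM of any of them in any library was 0.158. Its neighbours on the chromosome, *Cd209b* at 13380 bp and *Cd209f* at 155929 bp, were listed at 0 in every library. Markers of myeloid and dendritic cells, where Cd209 genes are usually found, summed over 9 genes to between 1.45 and 1.91 FPKM in untreated cells of the total RNA experiment, 2.23 and 2.62 at 4OHT day 5, and 1.86 and 2.22 in long-term KO. The sum at 4OHT day 5 was thus above that of untreated cells in every library. In the siRNA experiment their sum over 10 genes was between 3.99 and 4.80 FPKM in siCtrl, 6.71 and 7.03 in siDnmt1, 5.07 and 13.8 in 4OHT + siCtrl, and 12.3 and 15.6 in 4OHT + siDnmt1, and in the inhibitor experiment between 5.76 and 6.20 FPKM in untreated cells, 4.80 and 8.16 with PD0325901, 5.65 and 7.20 at 4OHT day 6, 6.86 and 15.3 with 4OHT + PD0325901, and 66.0 and 71.6 with TSA, where *Cd68* reached 66.9 FPKM. The part of these cells in the result was not tested. Of the fibroblast markers, 6 of the 7 with a value in the total RNA experiment were at 1 FPKM or more in every library. Their sum was between 1667 and 1681 FPKM in untreated cells, 1370 and 1455 at 4OHT day 5, and 1766 and 1833 in long-term KO. In the siRNA experiment it was between 4938 and 5040 FPKM in siCtrl, 4032 and 4205 in siDnmt1, 2324 and 3657 in 4OHT + siCtrl, and 2383 and 2424 in 4OHT + siDnmt1, where *Cd209c* was highest. In the inhibitor experiment it was between 2925 and 3177 FPKM in untreated cells, 3357 and 3449 with TSA, 4587 and 4962 with PD0325901, 2429 and 2495 at 4OHT day 6, and 2936 and 2994 with 4OHT + PD0325901. The part of these shifts in the results was not tested.

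**Figure D2:**
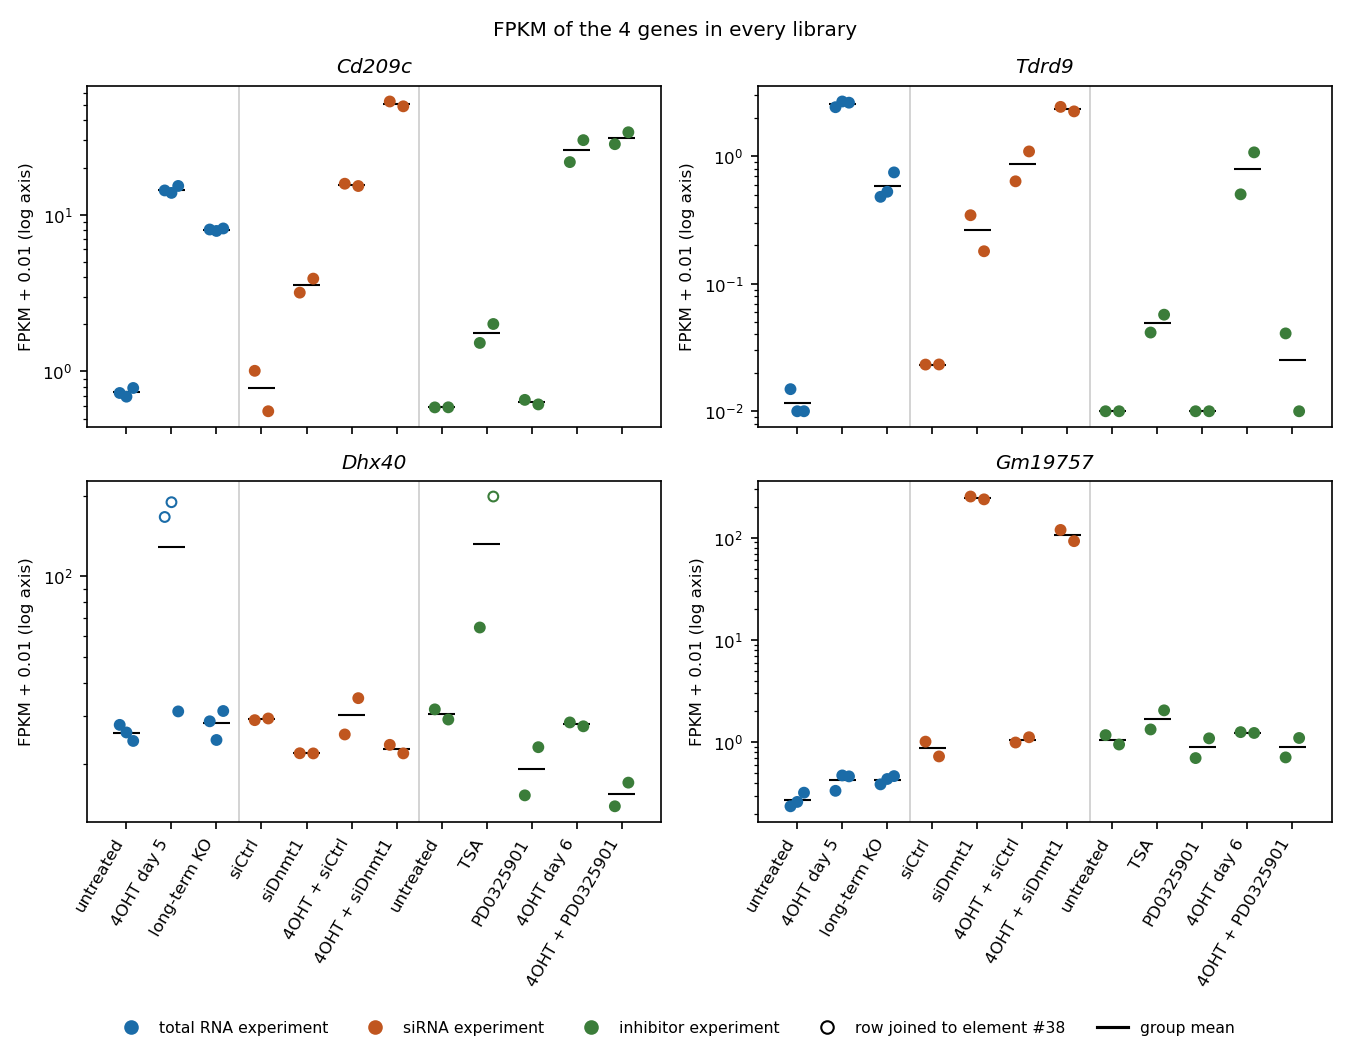
FPKM of each gene in every library, on a log axis after adding 0.01, with 1 point per library, black lines at group means, vertical lines between the 3 experiments and open points where the *Dhx40* row is joined to #38. *Cd209c* and *Tdrd9* are high in the 4OHT groups, except *Tdrd9* with 4OHT + PD0325901, *Gm19757* only with siDnmt1, and *Dhx40* mainly in the libraries with open points.

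*Tdrd9* RNA was at or near 0 in untreated cells and was found in all libraries after *Setdb1* deletion but 1. Its FPKM was 0.00490 in 1 untreated library of the total RNA experiment and listed at 0 in the other 2, where a 0 can be a failed estimate, since between 8 and 15 of 4406 well expressed genes are also listed at 0 in a library. At 4OHT day 5, it was 2.42, 2.68 and 2.62 FPKM. In long-term KO, the values were 0.471, 0.517 and 0.737 FPKM. All libraries at 4OHT day 5 were above all in long-term KO, which in turn were above the untreated ones.

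In the siRNA experiment, *Tdrd9* had 0.0132 and 0.0133 FPKM in siCtrl, a level that the deposited interval equates with 1 fragment in each library. The values were 0.335 and 0.170 FPKM in siDnmt1, 0.626 and 1.08 in 4OHT + siCtrl, and 2.43 and 2.24 in 4OHT + siDnmt1. As for *Cd209c*, the groups did not overlap, and the combination was highest. In the inhibitor experiment, *Tdrd9* was listed at 0 in both untreated and both PD0325901 libraries and had 0.0314 and 0.0472 FPKM with TSA. It had 0.493 and 1.06 FPKM at 4OHT day 6. With 4OHT + PD0325901, it was at 0.0308 FPKM in 1 library and listed at 0 in the other, so that both were below both libraries at 4OHT day 6, as for 19.9% of all genes tested.

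The intronic element #44 was measured from rows without a gene name that lay at least 50% inside it, as their FPKM averaged over the length of the element. It was at 4.21 and 6.74 in 4OHT + siCtrl, 8.62 and 9.37 in 4OHT + siDnmt1, and 5.63 and 8.75 at 4OHT day 6. No row was assembled inside #44 in siCtrl, in untreated cells, with PD0325901 or with 4OHT + PD0325901. Without a row an element may still be transcribed at a low level. In siDnmt1 it had no row in replicate 1, where *Tdrd9* was at 0.335 FPKM, and 0.272 in replicate 2, where *Tdrd9* was lower. With TSA it had no row in replicate 1 and 2.60 in replicate 2, with *Tdrd9* at 0.0472 FPKM. In the 3 groups of these experiments with 4OHT but without PD0325901, both #44 and *Tdrd9* were above every other library of the same experiment. At 4OHT day 5 no separate row lay inside #44 in any of the 3 libraries, and in long-term KO it was at 1.00 and 0.805 in replicates 1 and 2 and without a row in replicate 3, where *Tdrd9* was highest. Whether fragments of #44 entered the value of *Tdrd9* was not tested, and the sources used here do not say that strand was used in counting.

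Few other genes of the piRNA pathway were expressed. Of 18 piRNA and Tudor genes other than *Tdrd9*, 2 passed the filter in the total RNA experiment, 4 in the siRNA experiment and 1 in the inhibitor experiment. At 4OHT day 5 against untreated cells, 1 of 2 was called higher and 0 lower, where 2.05% of all genes were called higher, with a median log2 difference of 0.36, against 0.00 over all genes tested. The gene called was *Tdrd7*, a Tudor protein of germ granules, at 7.72 against 3.76 FPKM (log2 difference 1.02, limma, adjusted p = 6.20e-06). With siDnmt1 against siCtrl, 2 of 4 were called higher and 0 lower, where 2.37% of all genes were called higher, but both passed the filter only through the libraries with siDnmt1, in which they were high, so that this count follows from the filter. These were *Gtsf1*, at 9.45 FPKM and listed at 0 in siCtrl, and *Piwil2*, a Piwi protein, at 5.63 against 0.0259 FPKM. The germ cell markers summed to between 9.36 and 10.9 FPKM in siDnmt1 and to between 0.240 and 0.341 FPKM in siCtrl, with *Dazl* and *Piwil2* as the 2 markers at 1 FPKM or more. The part of germ cell genes in the rise of *Tdrd9* was not tested.

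Around *Tdrd9*, the gene *2010107E04Rik*, 4581 bp away, was at 171 ± 9.1 FPKM in untreated cells and at 184 ± 7.3 FPKM at 4OHT day 5 (SD, n = 3 each; log2 difference 0.11, limma, adjusted p = 0.153), and at 199 ± 8.7 FPKM in long-term KO (SD, n = 3; log2 difference to untreated 0.22, limma, adjusted p = 0.00600). *Rd3l*, which touches *Tdrd9*, was listed at 0 in every library. *5033406O09Rik*, 27076 bp away, had means of 0.174 FPKM in untreated cells, 0.276 in long-term KO and 0.483 at 4OHT day 5. In the siRNA experiment its means were 0.180 FPKM in siCtrl, 0.921 in siDnmt1, 0.648 in 4OHT + siCtrl and 2.05 in 4OHT + siDnmt1, so that it too was highest with both. *Aspg*, which codes for an asparaginase and lies 37828 bp away, had means of 0.0469 FPKM in untreated cells, 0.290 at 4OHT day 5, 0.482 in long-term KO and 1.74 with TSA. These 2 neighbours reached 1 FPKM only in 4OHT + siDnmt1 and only with TSA, respectively, so no test is given for them.

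*Dhx40* had the highest level of the 4 genes in untreated cells, and its 3 highest values were those of rows that reach into #38. Its FPKM was 27.9, 26.1 and 24.3 in untreated cells of the total RNA experiment and 28.7, 24.5 and 31.4 in long-term KO. At 4OHT day 5, it was 166 and 189 in replicates 1 and 2 and 31.3 in replicate 3. In replicates 1 and 2 the assembled row ran on to 86629898 and 86629900, across the whole of #38. In replicate 3 it ended at the gene, and a separate row over #38 had 258 FPKM. With TSA, replicate 2 had a row up to 86629897 with 198 FPKM, and replicate 1 a row that ended at the gene with 64.4 FPKM. Neither TSA library had a separate row inside #38, and whether fragments of #38 entered the value of replicate 1 was not tested.

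In all libraries whose *Dhx40* row ended at the gene, TSA replicate 1 aside, *Dhx40* was between 13.8 and 35.1 FPKM. It was 29.0 and 29.4 FPKM in siCtrl, 21.8 in both siDnmt1 libraries, 25.7 and 35.1 in 4OHT + siCtrl, and 23.5 and 21.8 in 4OHT + siDnmt1. Both siDnmt1 libraries were below both siCtrl ones, as for 44.9% of all genes tested, and 4OHT + siDnmt1 was below 4OHT + siCtrl, as for 23.4%. It was 31.8 and 29.2 FPKM in untreated cells of the inhibitor experiment and 28.5 and 27.5 at 4OHT day 6, which is lower in both libraries, as for 34.3% of all genes tested. With PD0325901 it was 15.2 and 23.01 FPKM, and with 4OHT + PD0325901 13.84 and 16.96, each below its group without the drug. Both PD0325901 libraries were below both untreated ones for 38.2% of all genes tested, and both 4OHT + PD0325901 libraries below both 4OHT day 6 ones for 19.9%. The means after loss of *Setdb1* at day 6 were 1.04-fold that of siCtrl and 0.917-fold that of untreated cells. With TSA, the neighbouring gene *Cltc*, which codes for clathrin heavy chain, also rose, from 149 ± 3.2 to 310 ± 18 FPKM (SD, n = 2 each; log2 difference 1.06, limma, adjusted p = 0.000744). On the other side, *Ypel2*, 128764 bp away, was at 2.15 FPKM in untreated cells. It was at 4.73 FPKM with TSA (log2 difference 1.10, limma, adjusted p = 0.0929) and at 0.618 at 4OHT day 6 (log2 difference -1.69, limma, adjusted p = 0.0423). In the siRNA experiment its means were 1.84 FPKM in siCtrl, 0.603 in siDnmt1, 1.16 in 4OHT + siCtrl and 0.438 in 4OHT + siDnmt1.

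The element #38 itself was much higher after *Setdb1* deletion. Averaged over its length, it was at 7.18 and 6.55 FPKM in siCtrl, 26.8 and 26.5 in siDnmt1, 92.7 and 175 in 4OHT + siCtrl, and 156 and 89.1 in 4OHT + siDnmt1. Both groups with 4OHT overlapped with each other and were above siDnmt1, and siDnmt1 was above siCtrl. In the total RNA experiment it was between 4.87 and 5.57 FPKM in untreated cells and between 37.7 and 39.7 FPKM in long-term KO. With PD0325901 it was at 0.646 and 0.363 FPKM, against 8.74 and 8.59 in untreated cells. With 4OHT + PD0325901, it was at 12.3 and 9.67 FPKM, against 145 and 141 at 4OHT day 6. The groups with and without PD0325901 did not overlap, whether *Setdb1* was deleted or not. No test was made of single elements.

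**Figure D3:**
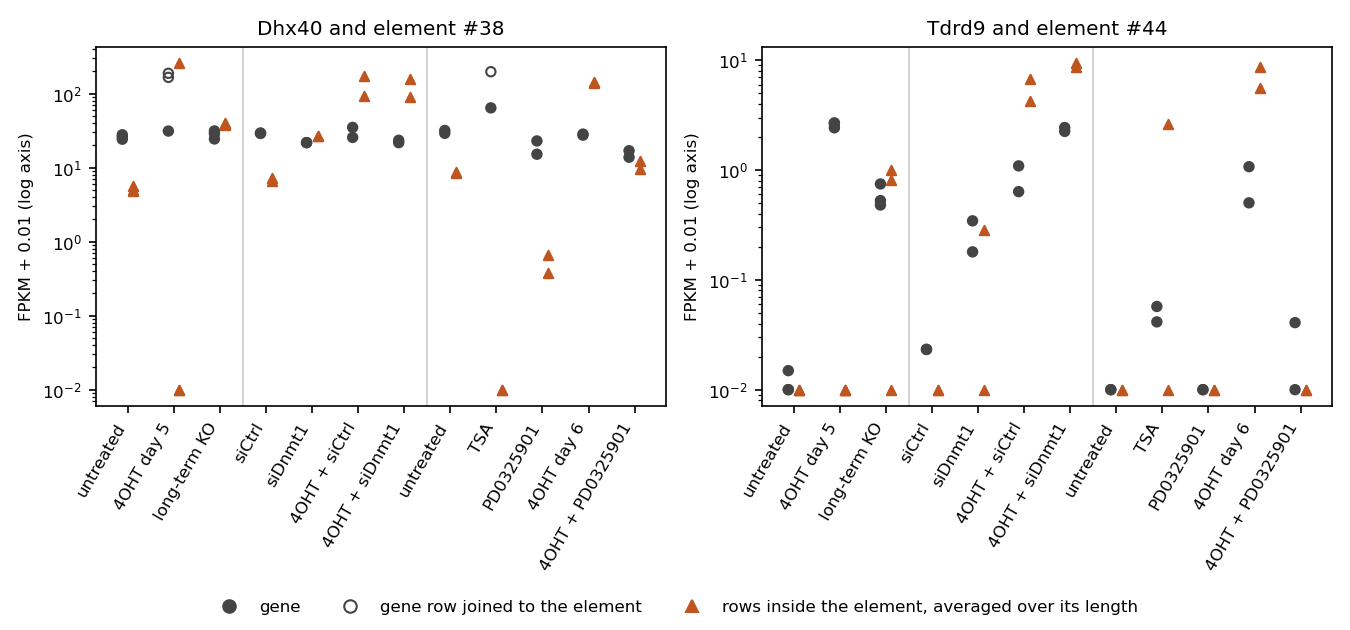
Gene (circles) and element (triangles) in every library, as FPKM on a log axis after adding 0.01, for *Dhx40* with #38 and *Tdrd9* with #44. Triangles on the lowest line are libraries with no separate row inside the element, and open circles are *Dhx40* rows joined to #38. Element #38 is above 89 FPKM in every day 6 library with 4OHT but without PD0325901, while *Dhx40* stays between 21.8 and 35.1 FPKM there.

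Among the other DEAH helicases, few were called. Of 15 listed, 14 were tested in the total RNA experiment, where 1 was called higher at 4OHT day 5 and 0 lower, against 2.05% of all genes tested called higher, with a median log2 difference of 0.09 against 0.00 over all genes tested. The gene called was *Dhx58*, which codes for the RNA sensor LGP2, at a mean of 7.07 against 0.728 FPKM. It reached 1 FPKM in the total RNA experiment only after *Setdb1* deletion, so that its call there follows in part from the filter. In the inhibitor experiment 2 of 15 were called higher at 4OHT day 6 and 0 lower, against 4.87% of all genes tested called higher. These were *Dhx58* at 35.1 against 0.749 FPKM and *Dhx34* at 14.4 against 4.86 FPKM. In the siRNA experiment limma called 0 of 15 higher and 0 lower with 4OHT + siCtrl against siCtrl, where 2.58% of all genes tested were called higher, and 5 of 15 had an unadjusted p under 0.05.

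*Gm19757* was high in every library with *Dnmt1* knockdown and low in every other library. Its FPKM was 1.00 and 0.714 in siCtrl and 254 and 238 in siDnmt1, a ratio of means of 286. It was 0.981 and 1.11 FPKM in 4OHT + siCtrl, which overlapped with siCtrl, and 119 and 92.7 FPKM in 4OHT + siDnmt1. Both libraries with siDnmt1 and 4OHT were therefore below both with siDnmt1 alone, at 0.432 of their mean, as for 23.9% of all genes tested, and every library with siDnmt1 was above every library without it. In the ranking of 10581 genes by the log2 difference of siDnmt1 against siCtrl, *Gm19757* was number 3, *Cd209c* number 247, *Tdrd9* number 353 and *Dhx40* number 8520. Here too, high ranks follow in part from the choice of genes. The germ cell markers were high in the same siDnmt1 libraries, as given above for *Tdrd9*, and their part in the result was not tested.

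In the other experiments, *Gm19757* stayed low. It was between 0.225 and 0.462 FPKM in all 9 libraries of the total RNA experiment, where it did not pass the filter. All libraries after *Setdb1* deletion were above the untreated ones, which reached at most 0.310 FPKM. The same separation from untreated cells held for 25.4% (4OHT day 5) and 41.1% (long-term KO) of all genes tested. In the inhibitor experiment *Gm19757* was 1.16 and 0.938 FPKM in untreated cells, 1.32 and 2.04 with TSA, 0.688 and 1.08 with PD0325901, 1.24 and 1.22 at 4OHT day 6, and 0.699 and 1.09 with 4OHT + PD0325901. The TSA libraries were above both untreated ones, as for 47% of all genes tested, and so were those of 4OHT day 6, as for 34.4%. Its annotated neighbours *Cntn6*, 617860 bp away, and *Gm15631*, 179669 bp away, were at 0 or at a mean of 0.0178 FPKM or less in every group in which they had a value.

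Of the silencing factors measured in the siRNA experiment, 25 of 26 were tested. With siDnmt1 against siCtrl, 0 of 25 were called higher and 1 lower, which was *Dnmt1* itself (11.4 against 77.0 FPKM), and 2.46% of all genes tested were called lower. With 4OHT + siCtrl, 3 of 25 were called higher and 0 lower, against 2.58% of all genes tested called higher, with a median log2 difference of 0.13 against 0.08 over all genes tested. These were *2810474O19Rik* (also named *Resf1*), at 71.0 against 17.5 FPKM, *Atf7ip*, a partner of Setdb1, at 37.9 against 15.6 FPKM, and *Zfp809*, which binds PBS-pro, at 11.7 against 5.63 FPKM. FPKM of the whole *Setdb1* gene do not report the loss of single exons. They were between 5.00 and 7.58 in the 4 libraries of the siRNA experiment with 4OHT and between 5.54 and 7.40 in the others. In the total RNA experiment they were between 5.16 and 5.95 in untreated cells, 4.16 and 6.52 at 4OHT day 5 and between 6.96 and 7.32 in long-term KO. In the inhibitor experiment *Setdb1* was listed at 0 in 4OHT day 6 replicate 1 and both 4OHT + PD0325901 libraries, at 5.30 FPKM in 4OHT day 6 replicate 2 and between 5.34 and 10.1 FPKM without 4OHT. A listed 0 can be a failed estimate. In the libraries with *Setdb1* at 0, between 10 and 19 of 5845 well expressed genes were also listed at 0.

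Both groups of the comparisons of long-term KO with 4OHT day 5 and of 4OHT + siDnmt1 with 4OHT + siCtrl served to pick genes, so these differences, on the scale of log2(FPKM + 0.1), are descriptions with no test. From 4OHT day 5 to long-term KO, the log2 difference was -0.84 for *Cd209c* and -2.0 for *Tdrd9*. For *Dhx40* it was -1.82, and -0.16 without 4OHT day 5 replicates 1 and 2, whose rows are joined to #38. Most of the difference of *Dhx40* in this comparison thus lies in those 2 libraries.

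When *Dnmt1* was knocked down in *Setdb1*-deleted cells, *Cd209c* differed by 1.71 on the log2 scale, with both libraries higher. The mean of *Tdrd9* was 2.74-fold higher, also with both libraries higher. *Dhx40* differed by -0.41, with both libraries lower. The mean of *Gm19757*, picked for its response to siDnmt1, was 102-fold higher.

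PD0325901 alone was tested against untreated cells with limma on log2(FPKM + 0.1), with Benjamini-Hochberg adjustment over all genes tested. 4OHT day 6 also served to pick genes, so for these genes the comparisons that include it are descriptions with no test. PD0325901 alone left none of the 3 genes that passed the filter with an adjusted p under 0.05, which 13.7% of all genes reached. In this fit none of the 3 had an unadjusted p under 0.05 either, which 29.1% of all genes had. *Cd209c* differed from untreated cells by 0.10 (95% interval -0.43 to 0.63, adjusted p = 0.830), *Dhx40* by -0.70 (-1.76 to 0.36, adjusted p = 0.355) and *Gm19757* by -0.25 (-1.02 to 0.53, adjusted p = 0.673). In every library of this comparison *Cd209c* was below 1 FPKM, at between 9.59 and 11.9 implied fragments. It passed the filter only through the TSA and 4OHT libraries, so near the floor this test says little about it. In *Setdb1*-deleted cells the 3 differences, as descriptions, were 0.27 for *Cd209c*, -0.87 for *Dhx40* and -0.45 for *Gm19757*. In this comparison 6.94% of all genes reached an adjusted p under 0.05 and 22.6% an unadjusted one, and none of the 3 did. The differences between the effects of PD0325901 with and without 4OHT were 0.18 for *Cd209c*, -0.16 for *Dhx40* and -0.20 for *Gm19757*. For these, 0.751% of all genes had an adjusted and 15.9% an unadjusted p under 0.05, and none of the 3 did. No conclusion is drawn from either count, since 4OHT day 6 served to pick the genes. The intervals for PD0325901 alone include changes of more than 1.5-fold for each gene.

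*Tdrd9* did not pass the filter in this experiment, so its values with PD0325901 are a description. Of the ERK targets, 8 of 10 were called lower and 0 higher with PD0325901, where 4.17% of all genes tested were called lower, with a median log2 difference of -2.37 against -0.07 over all genes tested. With 4OHT + PD0325901 against 4OHT day 6, 8 of 10 were again called lower and 0 higher, where 1.39% of all genes tested were called lower. *Etv4*, an Ets factor, went from 14.5 to 0.0691 FPKM with PD0325901, and *Spry4*, a feedback inhibitor of the pathway, from 6.41 to 0.0580 FPKM. Between 4OHT day 5 and long-term KO, 7 of 10 ERK targets were also called lower in the latter and 0 higher, where 6.12% of all genes tested were called lower.

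**Figure D4:**
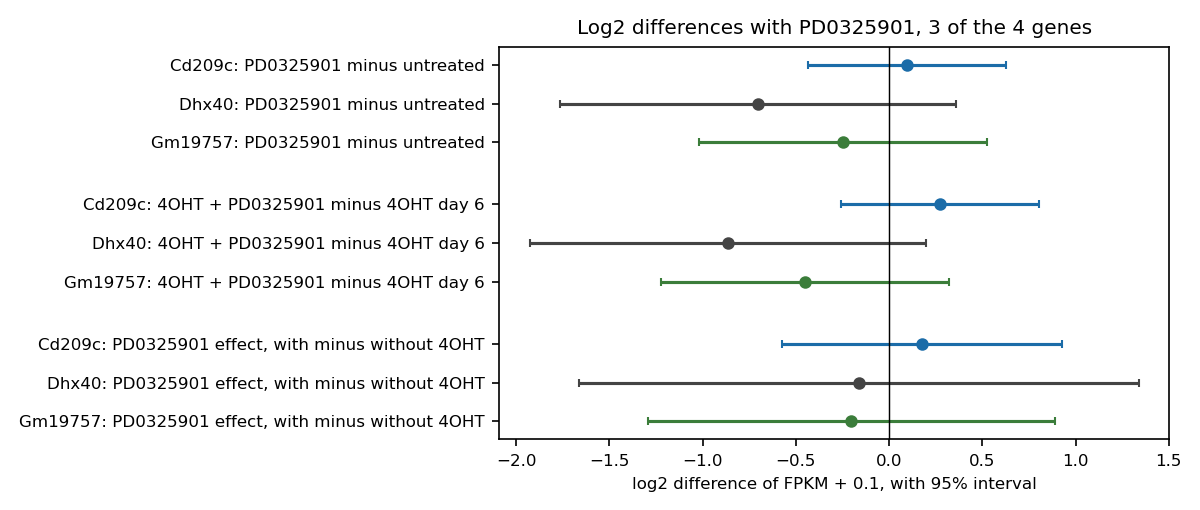
Log2 differences of FPKM + 0.1 with 95% intervals from limma (horizontal axis) for *Cd209c*, *Dhx40* and *Gm19757*, 1 line per gene and comparison with PD0325901. All 9 intervals include 0, and the points lie between -0.87 and 0.27.

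The pattern across all 27 libraries was compared with that of 8358 genes that passed the filter in all experiments, by Pearson's r of log2(FPKM + 0.1) after centring each experiment. As the libraries share groups and experiments, r is a description. *Cd209c* was most like *Znfx1* (r = 0.941), *Apol9a* (0.937) and *Oas1b* (0.937). *Tdrd9* was most like *Gm3776* (0.868), *Trim24* (0.849) and *Otud1* (0.843). *Gm19757* was most like *4933409K07Rik* (0.986), *Gm10845* (0.985) and *A430078G23Rik* (0.983). The mean of *Gm10845* was 3.18 FPKM in siCtrl, 135 in siDnmt1 and 64.8 in 4OHT + siDnmt1, and that of *A430078G23Rik* 1.01, 211 and 107 FPKM. For *Dhx40* the highest values were lower, with *H2afj* (0.777), *Casc4* (0.772) and *Ahcyl2* (0.767), and every r of *Dhx40* includes the 3 libraries whose row is joined to #38. Among the 4 genes, r was 0.809 for *Cd209c* and *Tdrd9* and between -0.03 and 0.317 for the other pairs.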

How the data were processed

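Reads were mapped by the authors on mm9 with TopHat2 (2.0.12, per the submitters' processing notes), which placed a multiply mapping read once, and Cufflinks was run on every library separately. The deposited FPKM and their intervals were used. Copies of ERVs that are near-identical are therefore uncertain. The authors' deposited tables of group comparisons hold fold changes and p-values and were not used. Rows of the total RNA experiment carry no gene names and were matched by position, covering at least 95% of the gene. In the 18 named libraries this gave the same FPKM as the name for at least 99.9% of genes. Intervals of genes with 1 exon imply between 36.9 and 41.7 M fragments per library of the total RNA experiment, 13.8 to 15.7 with siRNA and 10.9 to 12.7 with inhibitors.

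limma 3.58.1 (R 4.3.3) was fitted to log2(FPKM + 0.1) with trended variances, per experiment and over all its groups, for genes at 1 FPKM or more in at least 3 libraries (total RNA) or 2 (others), which left 8818, 10581 and 11316 genes. Tests were two-sided and adjusted by Benjamini-Hochberg. Long-term KO against 4OHT day 5, 4OHT + siDnmt1 against 4OHT + siCtrl and the PD0325901 comparisons that include 4OHT day 6 were planned as tests of the 4 genes too. They are given as descriptions because these groups served to pick the genes. Fold changes of low genes are understated on this scale. A gene was called at an adjusted p under 0.05 and a 2-fold difference. On simulated data, 190, 172 and 187 of 200 changed genes were called in the 3 experiments, and 3, 5 and 8 of the other genes. In order, these counts are for long-term KO against 4OHT day 5, 4OHT + siDnmt1 against 4OHT + siCtrl, and 4OHT + PD0325901 against 4OHT day 6. The changed genes were moved by a log2 difference of 2 and had a mean log2(FPKM + 0.1) above 2. The counts therefore do not hold for smaller differences or for genes at lower levels. Python 3.11.15 and BLAST 2.17.0 served for the other steps. Element lists are those of the study, and positions in the deposited files lay within the lengths of the mm9 reference for the 22 of 33 chromosome names it holds. The genes and lists were chosen with earlier results of these data known. Named were the 4 genes, up to 4 called genes per list by size, neighbours within 50 kb or nearest, and the 3 genes most alike in pattern. Leaving out the libraries with joined rows was chosen after seeing the data. Other alternatives varied the pseudocount, filter, scaling, samples in the fit and replicate block, and left out each library. In the library labelled PD0325901 replicate 2, a header line names 4OHT + PD0325901 replicate 2 and its description PD0325901, and the label was followed. *Cd209c* is at 0.606 FPKM in it, against 33.6 in the library labelled 4OHT + PD0325901 replicate 2.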

Additional observations from a re-analysis of the deposited data

Results flagged for a closer look

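With siDnmt1, *Gm19757* was lower where 4OHT was given, while with siCtrl the groups with and without 4OHT overlapped. In 4OHT + siDnmt1 its mean was 0.432 of that in siDnmt1, with both libraries lower, and in 4OHT + siCtrl it was 1.22-fold that in siCtrl, with both libraries above the mean of siCtrl, although the 2 groups overlapped. The difference between these effects was not tested. Genes most alike in pattern had means in 4OHT + siDnmt1 and siDnmt1 of 605 against 1272 FPKM for *4933409K07Rik*, 64.8 against 135 for *Gm10845* and 107 against 211 for *A430078G23Rik*. They were picked by r over libraries that include these, so their lower means follow in part from that choice. The germ cell markers summed to between 5.51 and 5.70 FPKM in 4OHT + siDnmt1 against 9.36 and 10.9 in siDnmt1. No other result met a criterion for a closer look, and no outlier test was made because no group holds more than 3 libraries.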

How the results depend on the processing

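As descriptions, the log2 difference of *Dhx40* between long-term KO and 4OHT day 5 was -1.82 with only the 2 groups fitted, -0.16 without the libraries with a joined row, and between -2.66 and -1.36 with each library left out. *Tdrd9* could not be fitted in this comparison without any 1 library at 4OHT day 5 or with a filter at 5 FPKM, since it then failed the filter. The difference of *Cd209c* with siDnmt1 in *Setdb1*-deleted cells was 1.71 with the replicate block and between 1.66 and 1.76 with each library left out, and that of *Dhx40* ranged from -0.63 to -0.18. The difference between the effects of PD0325901 with and without 4OHT changed sign for *Cd209c* with quantile normalization (-0.0107), and leaving out single libraries gave values from -0.0556 to 0.41, from -0.46 to 0.13 for *Dhx40* and from -0.49 to 0.0875 for *Gm19757*. The effect of PD0325901 alone on *Gm19757* ranged from -0.54 to 0.0435. The causes were not tested. Over the alternatives of the PD0325901 comparisons of *Cd209c*, *Dhx40* and *Gm19757*, 155 values kept direction and 6 changed sign. Those that include 4OHT day 6 are descriptions. The 111 genes called higher and 43 called lower with 4OHT + siDnmt1 against 4OHT + siCtrl became 58 and 20 with the block, 24 and 5 with only the 2 groups fitted, and between 41 and 584 and between 11 and 277 with each library left out, the most without 4OHT + siCtrl replicate 1. The 472 genes called lower with PD0325901 were 307 with a pseudocount of 1 and as few as 168 without untreated replicate 2. The 157 called lower with 4OHT + PD0325901 against 4OHT day 6 were 39 with only the 2 groups fitted and 104 without 4OHT + PD0325901 replicate 1. The 540 called lower in long-term KO against 4OHT day 5 were 332 with a filter at 5 FPKM and 358 with a pseudocount of 1.

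Same-numbered libraries of different groups had correlations of deviations between -0.05 and 0.12 in the total RNA, -0.07 and 0.02 in the siRNA and -0.03 and 0.26 in the inhibitor experiment, so the numbers were not taken to pair libraries. The replicate block changed no call on the 3 genes tested with PD0325901.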
